A study of Mus musculus with 8 samples.

Results

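Wnt10a, Wnt10b, Tcf7, Lef1, Tcf7l2, Ctnnb1, Axin2, Apc, Lrp5 and Lrp6 make up a list of 10 genes of the Wnt pathway, and all 10 were found by Ensembl identifier among the 47069 Ensembl genes that both expression tables held. The list was chosen from measured values of the contrast between the populations described here, so differences between the populations in these 10 genes are given as a description, with no p value of their own, and counts of calls among them stand only beside the share over all genes. RNA had been sequenced from regulatory T cells (Tregs) of the lymph node of C57BL/6 mice, aged 6 to 8 weeks, bearing a pair of reporters, 35EbiT and Blimp1-GFP, the latter knocked into the gene of Blimp1, whose symbol is Prdm1. The Ebi3-Treg population was positive for Thy1.1 and negative for Blimp1, the Blimp1-Treg population was the reverse, and both had been sorted as CD4-positive, CD25-positive cells with a further surface marker low. Each population had 4 libraries, with replicates 1 and 2 of both in 1 table of FPKM values (fragments per kilobase of gene and per megafragment of library, so that levels can be compared between genes) and replicates 3 and 4 in another. Whether each replicate was a separate animal is not stated, and p values therefore speak only of the spread among these libraries, which may be technical. In sorted bulk samples, fewer cells of a type and less RNA per cell cannot be told apart.

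Secreted Wnt ligands bind a Frizzled receptor together with Lrp5 or Lrp6. Without a ligand, a complex built on Apc and the Axin proteins marks beta-catenin, the product of Ctnnb1, for degradation, and with a ligand beta-catenin accumulates and joins DNA-bound factors of the TCF/LEF family. In T cells this family is represented mainly by TCF-1 (from Tcf7) and LEF-1 (from Lef1), which act in thymic development and in the maintenance of naive and memory cells, in part without beta-catenin.

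The core word that TCF/LEF factors read was searched in RefSeq promoter windows of the list, on the GRCm38.p6 build, because it is the sequence that links these factors to their targets. It was searched as CTTTGAA or CTTTGAT or CTTTGTA or CTTTGTT on both strands in the 250 bases before each annotated start. A gene can have several such starts. Over all genes, 4874 of 32851 windows of that length (14.8%) held at least 1 match. Windows existed for 6 of the 10 genes, Wnt10b, Tcf7, Lef1, Tcf7l2, Ctnnb1 and Axin2, and 2 of their 12 windows held a match. Both windows with a match are shown, with the match in capitals, beside the window of Axin2, a general target of beta-catenin and TCF/LEF. All 3 are written from 5′ to 3′ on the plus strand, which is the strand of these genes.
Lef1, chr3:131156044-131156293: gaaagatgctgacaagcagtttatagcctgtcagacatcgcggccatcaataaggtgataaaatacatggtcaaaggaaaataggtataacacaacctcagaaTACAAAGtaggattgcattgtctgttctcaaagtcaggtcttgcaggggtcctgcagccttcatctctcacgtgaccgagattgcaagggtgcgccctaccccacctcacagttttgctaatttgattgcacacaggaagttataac
Tcf7l2, chr19:55895071-55895320: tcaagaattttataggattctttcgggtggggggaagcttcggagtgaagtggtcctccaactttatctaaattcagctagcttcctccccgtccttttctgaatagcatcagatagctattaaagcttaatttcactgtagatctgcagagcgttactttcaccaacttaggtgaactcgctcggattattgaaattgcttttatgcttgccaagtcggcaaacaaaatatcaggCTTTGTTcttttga
Axin2, chr11:108920099-108920348: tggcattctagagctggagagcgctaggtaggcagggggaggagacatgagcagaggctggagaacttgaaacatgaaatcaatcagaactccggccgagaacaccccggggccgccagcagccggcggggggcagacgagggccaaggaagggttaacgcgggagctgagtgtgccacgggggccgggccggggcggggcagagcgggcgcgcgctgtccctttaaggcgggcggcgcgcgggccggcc
The Lef1 match, TACAAAG, is the reverse complement of CTTTGTA and began 147 bases before the annotated start that follows its window. The Tcf7l2 match, CTTTGTT, began 14 bases before the start that follows its own. Both windows lie downstream of another window of the same gene, which begins at 131110047 for Lef1 and 55741560 for Tcf7l2. Neither start is thus the first of its gene. The other 3 windows of Lef1 and the other window of Tcf7l2 held none, nor did the single Axin2 window. A match describes these letters and is no evidence of binding.

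The list spanned a wide range of levels, and 3 of its genes separated the populations. In Ebi3-Treg the means ran from Tcf7 at 583 FPKM through Ctnnb1 (145), Lef1 (79.3), Wnt10a (27.5), Apc (20.9), Lrp6 (15.3), Axin2 (4.67) and Tcf7l2 (0.820) to Wnt10b (0.199) and Lrp5 (0.198). In Blimp1-Treg the order was Ctnnb1 (131), Tcf7 (96.3), Lef1 (48.0), Apc (21.1), Lrp6 (11.8), Axin2 (4.91), Tcf7l2 (0.272), Wnt10a (0.193), Wnt10b (0.119) and Lrp5 (0.0708). Neighbours in the order whose ranges over 4 libraries overlapped were Wnt10a with Apc, Apc with Lrp6, Tcf7l2 with Wnt10b and Wnt10b with Lrp5 in Ebi3-Treg, and in Blimp1-Treg Ctnnb1 with Tcf7, Tcf7 with Lef1, Apc with Lrp6, and each neighbouring pair from Tcf7l2 down to Lrp5. A minimum of 1 FPKM in 4 or more libraries was required for the fit, which kept 7 of the 10 and 12273 genes in all, and left out Wnt10b, Tcf7l2 and Lrp5. Adjusted p was under 0.05 for 3 of the 7, Wnt10a, Tcf7 and Lef1, each higher in Ebi3-Treg, against 6.29% of all genes fitted (3.37% higher and 2.93% lower in Ebi3-Treg). A fit that took the replicate number as a block called the same 3 genes, against 22.4% of all genes. Over 19 alternative settings, which called from 0 to 2752 genes in all, Wnt10a and Tcf7 were each called in 18 and Lef1 in 12. Wherever the filter on low values was used, Wnt10a had entered the fit through its Ebi3-Treg libraries alone. The call for Lef1 ended with no filter on low values, without the table term and with replicates 1 and 2 alone. It also ended when replicate 3 or 4 of either population was left out. The same 3 genes had populations whose ranges did not overlap over the 8 libraries, against 11.1% of all genes fitted. Since this contrast chose the list, nothing is read from these counts.

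**Figure D1:**
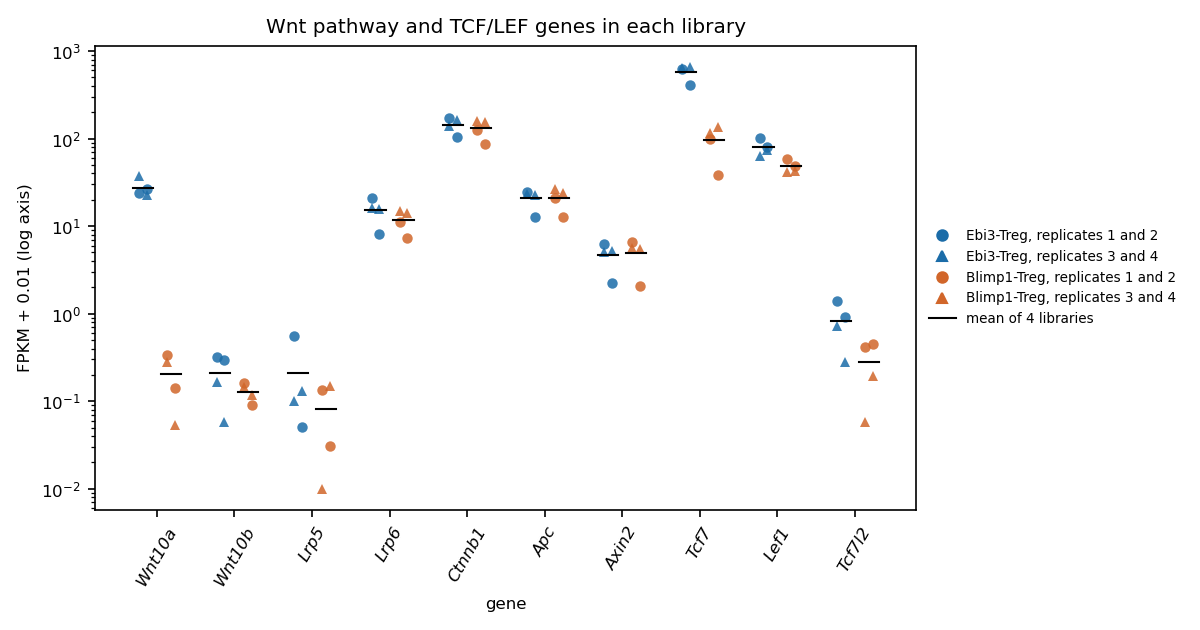
FPKM + 0.01 on a log axis (y) of each of the 10 genes (x) in every library, with Ebi3-Treg in blue, Blimp1-Treg in orange, circles for replicates 1 and 2, triangles for replicates 3 and 4 and a bar at the mean of 4 libraries. Wnt10a and Tcf7 stand apart by population, Lef1 by less, and Ctnnb1, Apc, Axin2 and Lrp6 overlap.

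Of the ligands, Wnt10a (ENSMUSG00000026167) was present in Ebi3-Treg and near the limit of detection in Blimp1-Treg. It was at 23.6, 26.3, 37.7 and 22.4 FPKM in Ebi3-Treg 1 to 4 and at 0.330, 0.132, 0.268 and 0.0438 FPKM in Blimp1-Treg 1 to 4. Every Ebi3-Treg library was far above every Blimp1-Treg library, and the level in Blimp1-Treg was that of a handful of fragments. The smallest whole fragment numbers that give these FPKM values were 939, 824, 779 and 769 in Ebi3-Treg against 16, 4, 8 and 1 in Blimp1-Treg. The means were 27.5 ± 6.96 and 0.193 ± 0.129 FPKM (SD, n = 4). The log2 fold change, taken on log2(FPKM + 1) and so too small for a gene this low in one group, was 4.56 (SE 0.21), from 4.40 in replicates 1 and 2 to 4.71 in replicates 3 and 4. With a pseudocount of 0.1 it was 6.65.

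Wnt10b (ENSMUSG00000022996), the closest relative of Wnt10a among the ligands, was low in both populations. It was at 0.307, 0.285, 0.157 and 0.0474 FPKM in Ebi3-Treg and at 0.151, 0.0805, 0.136 and 0.107 FPKM in Blimp1-Treg. The ranges overlapped, the lowest value of all being in Ebi3-Treg 4, and the gene was too low to be fitted. Wnt10a thus made up most of the ligand transcript of Ebi3-Treg. Over 19 ligand genes, the summed level was 32.0, 33.0, 43.4 and 29.6 FPKM in Ebi3-Treg 1 to 4 and 2.46, 1.12, 2.43 and 1.81 FPKM in Blimp1-Treg 1 to 4. The share of Wnt10a in that sum was 73.8%, 79.7%, 86.8% and 75.8% in Ebi3-Treg against 13.4%, 11.8%, 11% and 2.42% in Blimp1-Treg. Of the 19 ligands, 16 were below 1 FPKM in every library.

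**Figure D2:**
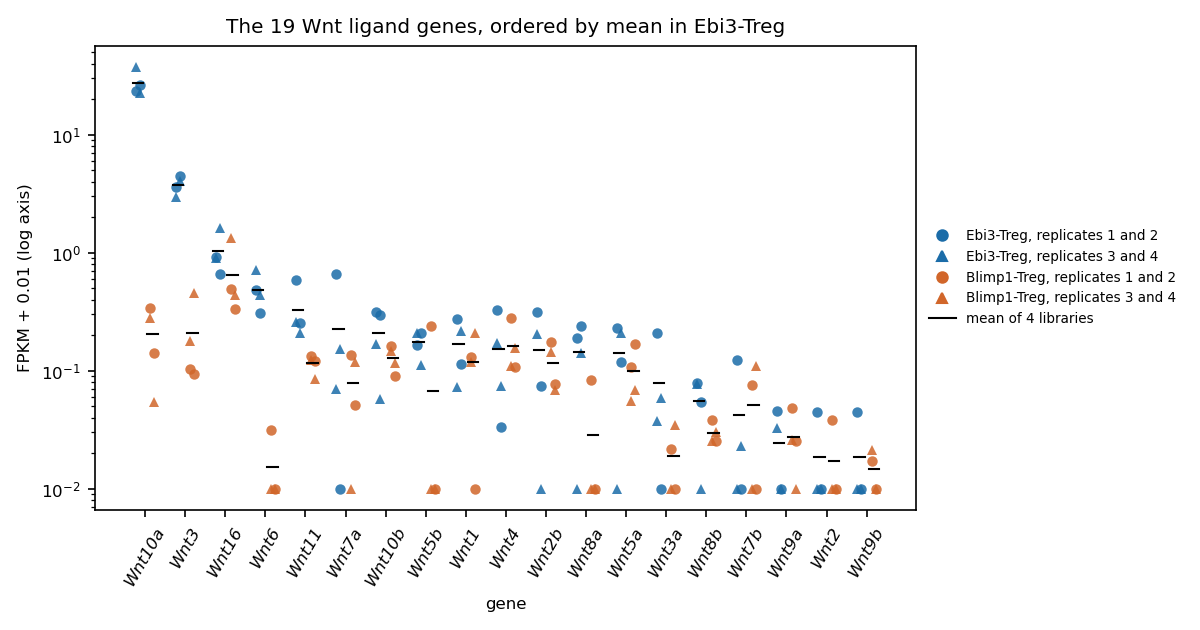
FPKM + 0.01 on a log axis (y) of the 19 Wnt ligand genes (x), ordered by the mean in Ebi3-Treg, in every library (colours, symbols and bars by population, replicates and mean of 4). Wnt10a and Wnt3 are above all other ligands in Ebi3-Treg, and symbols at 0.01 are libraries at 0.

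Wnt3, a canonical ligand outside the list of 10, was the only one of the other 17 ligands high enough to enter the fit. It was at 3.56, 4.46, 2.95 and 4.0 FPKM in Ebi3-Treg and at 0.0936, 0.0833, 0.169 and 0.442 FPKM in Blimp1-Treg. No library of one population reached the range of the other. Its log2 fold change was 1.99 (SE 0.19). Like Wnt10a, Wnt3 entered the fit through its Ebi3-Treg libraries alone and so had to differ, and its call in that fit is no support for the difference. Fitted with no filter on low values, over 40415 genes, it had an adjusted p of 0.00419 (limma). The next ligands by mean level, Wnt16 (at most 1.60 FPKM), Wnt6 (at most 0.702) and Wnt11 (at most 0.579), were not tested. Of the genes for ligand secretion and the R-spondins, which strengthen Wnt signals at the membrane, 5 of 6 stayed below 1 FPKM in every library, among them Porcn and Rspo2, and 1 was tested. This was Wls, the carrier of lipid-modified ligands to the cell surface. Wls was at 57.3, 55.2, 99.6 and 90.6 FPKM in Ebi3-Treg and at 72.1, 81.7, 145 and 127 FPKM in Blimp1-Treg, or -0.47 on the log2 scale (SE 0.12, adjusted p = 0.0564), and it was lower in Ebi3-Treg with the replicate block (adjusted p = 0.00602). Its populations did not overlap within either table.

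The 2 co-receptors of the list differed in level from each other far more than between populations. Lrp6 (ENSMUSG00000030201) was at 21.0, 8.17, 16.3 and 15.8 FPKM in Ebi3-Treg and at 11.1, 7.22, 14.8 and 14.2 FPKM in Blimp1-Treg. The populations overlapped, and the library numbered 2 was the lowest in each. Its log2 fold change was 0.32 (SE 0.28), with means of 15.3 ± 5.31 and 11.8 ± 3.48 FPKM (SD, n = 4). Lrp5 (ENSMUSG00000024913) was at 0.541, 0.0404, 0.0916 and 0.120 FPKM in Ebi3-Treg and at 0.124, 0.0209, 0 and 0.139 FPKM in Blimp1-Treg. Ebi3-Treg 1 stood above the other 7 libraries, which overlapped.

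Among the 16 other receptor genes, 2 were tested, and 9 were below 1 FPKM in every library. Fzd6, a Frizzled receptor, was in Ebi3-Treg at 1.16, 0.510, 0.423 and 0.788 FPKM against 3.29, 2.35, 2.64 and 5.04 FPKM in Blimp1-Treg. The populations did not overlap, and the log2 fold change was -1.31 (SE 0.25). Fzd6 reached the minimum level in all 4 Blimp1-Treg libraries and in Ebi3-Treg 1 only, so it entered the fit through the population where it was high. Its call as lower there is no support for the difference, and with no filter on low values it did not pass (adjusted p = 0.0613, limma). The call also ended within each table alone and when any single library other than Ebi3-Treg 1 and Blimp1-Treg 2 was left out (adjusted p from 0.0521 to 0.0805). Ryk, a receptor-like protein that binds Wnt ligands, was at 15.1, 17.6, 23.4 and 23.2 FPKM in Ebi3-Treg and 8.77, 11.9, 16.0 and 15.3 FPKM in Blimp1-Treg (log2 fold change 0.58, SE 0.15, adjusted p = 0.0586, and 0.00566 with the replicate block). Fzd5 and Lgr5, the next receptors by mean level, were at 0.843 and 0.552 FPKM over the 8 libraries and were not tested.

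None of the 7 tested genes listed as extracellular and membrane inhibitors, of 18 listed, passed the test. With the replicate block, a fit that called 22.4% of all genes, 4 were higher and 1 lower in Ebi3-Treg. Among the 4 was Bambi, which is not an established inhibitor of the pathway. Rnf43, a membrane ubiquitin ligase that removes Frizzled receptors, was at 97.7, 20.7, 98.4 and 89.0 FPKM in Ebi3-Treg and at 32.5, 8.49, 65.4 and 59.1 FPKM in Blimp1-Treg. Each Ebi3-Treg library was above the Blimp1-Treg library of its number, and the libraries numbered 2 were the lowest of both populations. Its log2 fold change was 0.98 (SE 0.54, adjusted p = 0.407, and 0.00896 with the block). Its relative Znrf3 had a difference of 0.49 on the log2 scale (SE 0.31, adjusted p = 0.50, and 0.0274 with the block), and Kremen1, a partner of Dkk inhibitors, one of -0.47 (SE 0.44, adjusted p = 0.700, and 0.0420 with the block).

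The beta-catenin gene and the 2 members of the destruction complex showed differences smaller than their errors. Ctnnb1 (ENSMUSG00000006932) was at 171, 105, 138 and 164 FPKM in Ebi3-Treg and at 124, 86.1, 159 and 156 FPKM in Blimp1-Treg. The ranges overlapped, and the library numbered 2 was again the lowest of each population. The log2 fold change was 0.16 (SE 0.21), and within the tables it was 0.38 (replicates 1 and 2) and -0.07 (replicates 3 and 4). Apc (ENSMUSG00000005871), the scaffold of the complex, was at 24.8, 12.6, 23.3 and 22.8 FPKM in Ebi3-Treg and at 21.1, 12.8, 26.2 and 24.2 FPKM in Blimp1-Treg. The values of the populations interleaved, and the log2 fold change was -0.01 (SE 0.24).

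Axin2 (ENSMUSG00000000142) belongs to the destruction complex and is also widely read as a transcriptional target of the pathway. It was at 6.27, 2.24, 4.99 and 5.17 FPKM in Ebi3-Treg and at 6.53, 2.08, 5.60 and 5.44 FPKM in Blimp1-Treg. Libraries of the same number lay close together and the populations overlapped. It had a difference of -0.04 on the log2 scale (SE 0.34), with means of 4.67 ± 1.71 and 4.91 ± 1.95 FPKM (SD, n = 4). The difference is thus bounded by its error and not shown to be 0.

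Of 11 other genes of the destruction complex, 10 were tested and none passed, with a median log2 fold change of 0.15. The most abundant were Csnk1a1, the kinase that primes beta-catenin (log2 fold change 0.15, SE 0.15, adjusted p = 0.720), Tnks2, which destabilizes Axin proteins (0.15, SE 0.21, adjusted p = 0.83), and Axin1 (0.06, SE 0.28, adjusted p = 0.954). With the replicate block 1 of the 10, Fbxw11, a part of the ligase that tags beta-catenin, was lower (log2 fold change -0.42, adjusted p = 0.00985 with the block and 0.286 without it). Of 8 cytoplasmic transducers 6 were tested and none passed, while with the block Dvl1 and Dvl2 were higher. Dvl1, which relays the receptor signal to the complex, had a difference of 0.53 on the log2 scale (SE 0.34, adjusted p = 0.510, and 0.0107 with the block), and its relative Dvl2 one of 0.71 (SE 0.35, adjusted p = 0.342, and 0.00888 with the block). Csnk1g2 and Csnk1g3, kinases of the receptor complex, had log2 fold changes of -0.11 (SE 0.21) and 0.03 (SE 0.14). These counts of 0 come from limma, and over all 45 other pathway genes tested 9 had an unadjusted p under 0.05.

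Tcf7 (ENSMUSG00000000782) was the most abundant gene of the list in Ebi3-Treg. It was at 619, 410, 639 and 664 FPKM in Ebi3-Treg and at 98.3, 37.9, 115 and 135 FPKM in Blimp1-Treg. The lowest Ebi3-Treg library was above the highest Blimp1-Treg library, and the library numbered 2 was the lowest of each population. The log2 fold change was 2.70 (SE 0.31), or 3.02 in the first table and 2.38 in the second, with means of 583 ± 117 and 96.3 ± 41.7 FPKM (SD, n = 4). Without both libraries numbered 2 it was 2.47.

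Lef1 (ENSMUSG00000027985) moved the same way by less. It was at 101, 79.9, 62.6 and 73.9 FPKM in Ebi3-Treg and at 59.2, 49.0, 41.2 and 42.7 FPKM in Blimp1-Treg. The populations did not overlap, but the lowest Ebi3-Treg library, 3, and the highest Blimp1-Treg library, 1, were close. The log2 fold change was 0.71 (SE 0.14), or 0.73 in the first table and 0.68 in the second, with means of 79.3 ± 16.0 and 48.0 ± 8.19 FPKM (SD, n = 4).

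Tcf7l2 (ENSMUSG00000024985), which encodes TCF-4, was at 1.39, 0.904, 0.718 and 0.268 FPKM in Ebi3-Treg and at 0.408, 0.444, 0.0475 and 0.186 FPKM in Blimp1-Treg. These values are given by 78, 40, 21 and 13 fragments against 28, 19, 2 and 6 at the smallest. Within each table the Ebi3-Treg libraries were above the Blimp1-Treg libraries, but Ebi3-Treg 4 was below Blimp1-Treg 1 and 2, and the gene was too low to be fitted. Tcf7l1, which encodes TCF-3 and was not on the list of 10, was at 3.10, 3.44, 3.0 and 1.88 FPKM in Ebi3-Treg and at 0.265, 0.426, 0.275 and 0.359 FPKM in Blimp1-Treg. The populations were well apart, and the log2 fold change was 1.52 (SE 0.19). Tcf7l1 too entered the fit through its Ebi3-Treg libraries alone, so its call there is no support, and with no filter on low values it had an adjusted p of 0.0121 (limma).

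The makeup of the TCF/LEF transcript pool differed between the populations along with its size. The 4 factors summed to 725, 494, 705 and 740 FPKM in Ebi3-Treg 1 to 4 and to 158, 87.7, 156 and 178 FPKM in Blimp1-Treg 1 to 4. Tcf7 made up 85.5%, 83.0%, 90.6% and 89.7% of the sum in Ebi3-Treg and 62.1%, 43.2%, 73.4% and 75.7% in Blimp1-Treg. Lef1 made up 13.9%, 16.2%, 8.88% and 9.99% in Ebi3-Treg and 37.4%, 55.8%, 26.4% and 24.0% in Blimp1-Treg. The ratio of Tcf7 to Lef1 was 6.14, 5.13, 10.2 and 8.98 in Ebi3-Treg against 1.66, 0.773, 2.78 and 3.15 in Blimp1-Treg. Blimp1-Treg 2 was the only library with more Lef1 than Tcf7, and the ratio was lowest in the library numbered 2 of each population. As ratios of genes on the list, these are a description too.

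**Figure D3:**
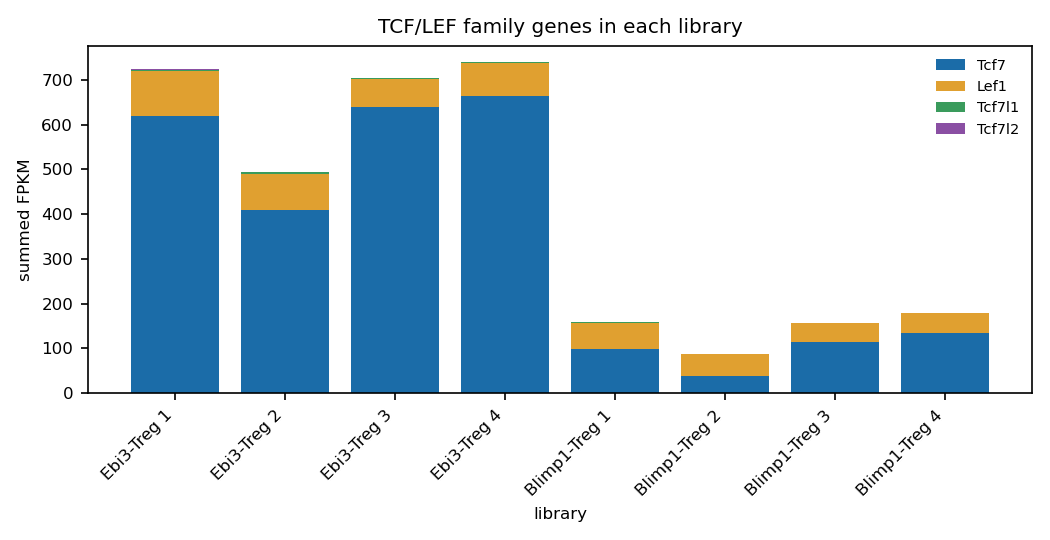
Summed FPKM (y) of the 4 TCF/LEF family genes in each library (x), with each gene as a coloured part of the bar. Tcf7 fills most of the bar in the Ebi3-Treg libraries, the Lef1 part is a larger share in the Blimp1-Treg libraries, and Tcf7l1 and Tcf7l2 are barely visible.

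Of 17 other nuclear partners and corepressors 16 were in the files and 15 were tested, and Tcf7l1, with the limit given above, was the only one called. The most abundant were Aes, which encodes a truncated relative of the Groucho corepressors (log2 fold change 0.06, SE 0.15, adjusted p = 0.916), the deacetylase gene Hdac1 (0.42, SE 0.14, adjusted p = 0.133, and 0.0131 with the block) and the corepressor gene Ctbp1 (0.01, SE 0.25, adjusted p = 0.994). Tle1, a Groucho corepressor that binds TCF/LEF factors, was at 7.85, 9.65, 11.8 and 11.8 FPKM in Ebi3-Treg and at 6.55, 7.03, 3.98 and 4.53 FPKM in Blimp1-Treg. The populations did not overlap, and the gap was wider in replicates 3 and 4. The log2 fold change was 0.80 (SE 0.23, adjusted p = 0.0842, and 0.0383 with the block). Tle1 was named after its values were seen. Tle3, another, was called higher only with the block (log2 fold change 0.65, SE 0.64, adjusted p = 0.721, and 0.0208 with the block), with 13.6 and 6.37 FPKM in the libraries numbered 2 against 39.6 to 77.7 FPKM in the rest.

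Of 6 general targets of beta-catenin besides Axin2, 3 were tested and 1 passed. Myc, which drives growth and is regulated by many pathways, was at 179, 118, 129 and 167 FPKM in Ebi3-Treg and at 61.6, 37.5, 46.0 and 57.1 FPKM in Blimp1-Treg. All Ebi3-Treg libraries were above all Blimp1-Treg libraries, and the log2 fold change was 1.54 (SE 0.21, adjusted p = 0.00600, limma). Jun had a difference of 0.72 on the log2 scale (SE 0.39, adjusted p = 0.407, and 0.00180 with the block), and Cd44 one of 0.17 (SE 0.18, adjusted p = 0.75). Ccnd1 was at 0.0646 to 1.34 FPKM and was not tested, and neither were Sp5 and Ephb2.

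Over all 98 other pathway genes in the files, 45 were tested. Wnt3, Tcf7l1 and Myc were called higher and Fzd6 lower in Ebi3-Treg, and 41 did not pass, where 6.29% of all genes were called. Of these 4, Wnt3, Tcf7l1 and Fzd6 had entered the fit through the population where they were high, and Myc alone had passed the filter in both, so nothing is read from the count. With the replicate block 15 were called higher and 4 lower, in a fit that called 22.4% of all genes. Those counts hold Wnt3, Tcf7l1 and Fzd6 as well, so nothing is read from them either. The median log2 fold change was 0.17 against 0.07 over all genes tested, and 35 of 45 values were above 0 against 7269 of 12273. Wnt3, Tcf7l1 and Fzd6 are among the 45 too, and the 45 were not tested as a set. Another 45 of the 98 were below 1 FPKM in every library. Among the alternatives in which they were fitted, Wnt3, Tcf7l1 and Myc lost their calls in 1, replicates 1 and 2 alone, where no gene of the whole table was called by limma (707 genes had an unadjusted p under 0.05). At a minimum of 5 FPKM, Wnt3 and Tcf7l1 were not fitted.

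**Figure D4:**
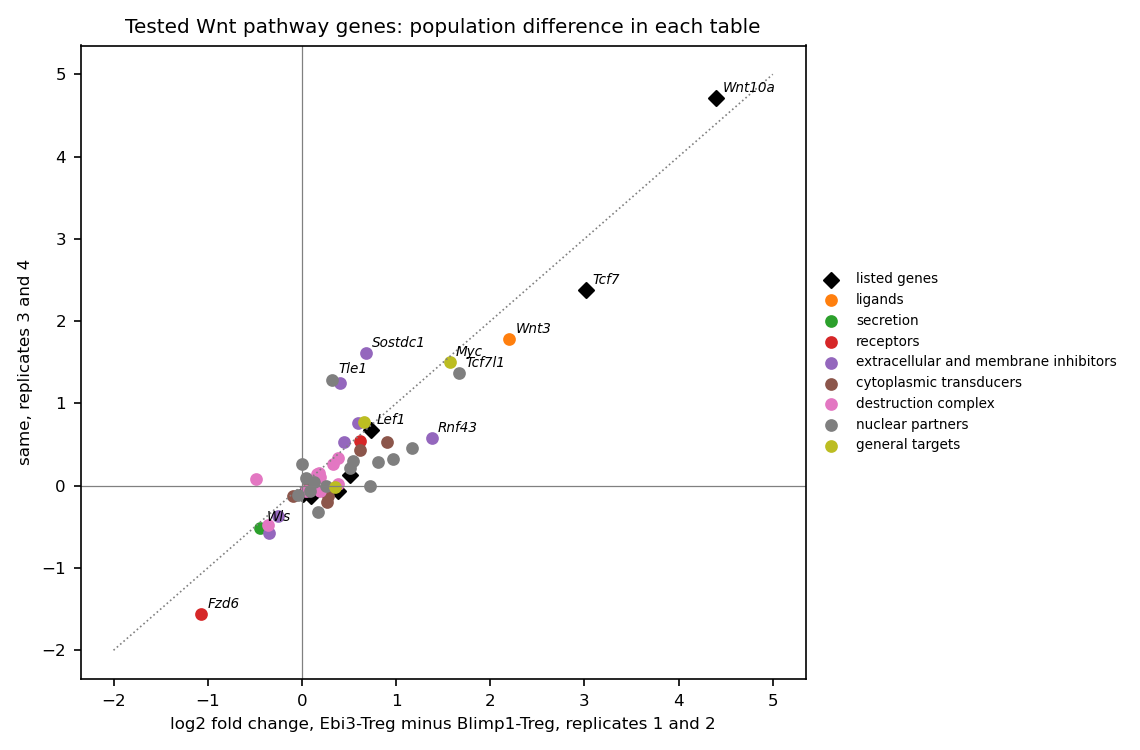
Log2 fold change between the populations in replicates 1 and 2 (x) against that in replicates 3 and 4 (y) for the tested pathway genes, with the genes of the list as black diamonds, the others as circles coloured by role and equality as a dotted line. Wnt10a (4.40 and 4.71) and Tcf7 (3.02 and 2.38) lie far out, Fzd6 (-1.07 and -1.56) lies at the other end, and most genes sit near 0.

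A list of 13 genes that are known to be bound or regulated by TCF-1 in T cells, or to mark cells with high TCF-1, was also counted. Some of its genes had been seen to move in earlier results, so its counts are no independent evidence. Of 12 tested, 4 were higher and 1 lower in Ebi3-Treg and 7 did not pass, where 3.37% of all genes were called higher and 2.93% lower. The median log2 fold change was 0.66 against 0.07 over all genes tested. The replicate block, with 22.4% of all genes called, gave 8 higher and 2 lower. Id3, an inhibitor of E proteins, was at 140, 111, 91.7 and 98.7 FPKM in Ebi3-Treg and at 24.8, 17.4, 14.7 and 11.7 FPKM in Blimp1-Treg (log2 fold change 2.65, SE 0.17, adjusted p = 0.000310). Ccr7, a receptor for homing to lymph nodes, was at 525, 1750, 259 and 314 FPKM in Ebi3-Treg and at 95.4, 141, 30.8 and 29.6 FPKM in Blimp1-Treg. Both genes separated the populations without overlap, and Ccr7 was higher in replicates 1 and 2 than in replicates 3 and 4 of either population. Ccr7 differed by 3.12 on the log2 scale (SE 0.34, adjusted p = 0.00252), which lost its call without the table term (adjusted p = 0.0523).

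Bcl6 encodes a transcriptional repressor that acts in follicular T cells and opposes Blimp1. It was at 11, 8.50, 10.3 and 11.3 FPKM in Ebi3-Treg and at 2.33, 1.79, 4.10 and 5.36 FPKM in Blimp1-Treg (log2 fold change 1.43, SE 0.22, adjusted p = 0.00838). Slamf6, a surface receptor found on TCF-1-high T cells, was at 236, 288, 240 and 237 FPKM in Ebi3-Treg and at 169, 180, 104 and 129 FPKM in Blimp1-Treg. Its log2 fold change was 0.80 (SE 0.15, adjusted p = 0.0203). The call for Slamf6 ended when replicate 3 or 4 of either population or Ebi3-Treg 2 was left out (adjusted p from 0.0558 to 0.0869), and also with no filter (0.0613), without the table term (0.0727) and with replicates 1 and 2 alone. Prdm1, the lower gene, encodes the Blimp1 on which the cells were sorted, and its difference (-4.43, SE 0.23) checks the sort.

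The genes whose profiles over the 8 libraries were most like those of the 3 separating members were found by the root mean square distance of log2(FPKM + 1), after each gene had been centred on its mean in each table, among 10555 genes. For Wnt10a they were Lad1 (distance 0.408), Nsg2 (0.438), Capn3 (0.475), Gsta4 (0.759) and Evl (0.792). Lad1 had means of 19.9 and 0.225 FPKM in Ebi3-Treg and Blimp1-Treg. For Tcf7 they were Ms4a4c (0.188), Bicdl1 (0.229), St8sia6 (0.256), Nod1 (0.262) and Ncf1 (0.286). For Lef1, whose small difference many genes share, they were Npepps (0.046), Uck2 (0.065), Sirt5 (0.073), Abcb9 (0.078) and Klhl3 (0.081).

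The difference between the tables was a contrast that had not chosen the list, and it could be tested. None of the 7 fitted genes passed (limma), 1 of them, Lef1, at an unadjusted p under 0.05, against 8.41% of all genes called and 3959 genes at an unadjusted p under 0.05. The largest difference was that of Tcf7, 0.69 higher in replicates 3 and 4 on the log2 scale (SE 0.31), while Lef1 was 0.37 lower (log2 difference -0.37, SE 0.14). Ctnnb1, Axin2, Apc and Lrp6 had log2 differences of 0.38 to 0.47, and Wnt10a one of 0.06 (SE 0.21). Without both libraries numbered 1, 5 of the 7 were called, and without Ebi3-Treg 1 alone 3. The first of these fits has only the libraries numbered 2 in the first table, and those stood apart by exon length. The share of all genes called was not counted in either fit, so nothing is read from these counts. In the fit of all libraries, 1 of the other pathway genes, Wls, passed (0.78 higher in replicates 3 and 4, SE 0.12, adjusted p = 0.0169). This fit takes libraries of the same number as independent although they deviated together, so its p values and the share of 8.41% may overstate the table difference. Xist did not exceed 0.0750 FPKM in replicates 1 and 2 and was between 18.5 and 24.4 FPKM in the other 2 of each population, so the table and the sex of the mice cannot be told apart. The population difference itself was not shown to differ between tables for any gene (0 of 12273, 0.00%, with 203 at an unadjusted p under 0.05, none of them among the 7). Tle1 had the lowest unadjusted interaction p of the pathway genes, 0.0193 (adjusted p = 1.0).

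The depth behind the values ranged from 13.3 to 31.3 megafragments, which put 1 fragment per kilobase of gene at 0.0320 to 0.0750 FPKM. The libraries numbered 2 stood apart from the rest by exon length, with a median log2 difference from 0.30 in the shortest of 4 equal classes of genes to -0.58 in the longest. Within the list this difference was -1.11 for Tcf7, -1.07 for Axin2, -0.91 for Lrp6, -0.85 for Apc, -0.66 for Ctnnb1, -0.07 for Wnt10a and 0.05 for Lef1. Tcf7, with 2625 exon bases, was in the second shortest class, whose median was -0.07. Lef1, with 8788, was in the longest, so neither was near the median of its class. Without both of these libraries the log2 fold changes were 4.54 for Wnt10a, 0.71 for Lef1, 0.38 for Lrp6, 0.11 for Ctnnb1, -0.01 for Apc and -0.08 for Axin2. All 6 Treg markers, Foxp3 among them, were above 0 in every library. Their sum ran from 2650 to 3860 FPKM in Ebi3-Treg against 3490 to 5890 FPKM in Blimp1-Treg. The mean was higher in Ebi3-Treg for 0 of the 6. None of the 6 passed, and 2 were lower in Ebi3-Treg with the replicate block, which called 22.4% of all genes. Marker sums of other cells reached higher in Ebi3-Treg, from 26.8 to 193 FPKM against 20.8 to 141 FPKM for 5 B cell genes, from 10.9 to 107 against 8.40 to 36.3 for 4 myeloid genes, from 2.27 to 12.6 against 1.13 to 3.18 for 2 NK cell genes and from 8.58 to 39.3 against 7.76 to 30.3 for 2 CD8 T cell genes. Cd8a was at 0 in Ebi3-Treg 4 and Itgam at 0 in Ebi3-Treg 3. The mean was higher in Ebi3-Treg for 5 of 5 B cell, 2 of 4 myeloid, 2 of 2 NK cell and 2 of 2 CD8 T cell genes. None of those tested passed, and with the replicate block 1 B cell and 1 myeloid gene did. The part of such cells in the results was not tested.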

How the data were processed

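RNA of 8 sorted Treg libraries was analysed, 4 per population. Per the labels' protocols, magnetic enrichment of CD4 T cells was followed by a sort to a purity above 90%, and RNA was made into libraries with a SMART-Seq v4 low input kit from 10 pg to 10 ng of RNA. The 2 deposited tables hold the authors' FPKM values. The submitters' processing notes name TopHat2 2.0.12, Bowtie2 2.2.3, HTSeq 0.6.1 and the build mm9. Annotation, counting mode and use of strand are not stated in the sources used here, so overlapping and antisense genes cannot be told apart. Symbols came from a GENCODE table of GRCm38, for 46488 of 47069 Ensembl genes. Because its build differs, no gene coordinates are given, and the promoter windows carry their own build.

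Log2(FPKM + 1) of each gene that reached 1 FPKM in 4 or more libraries was modelled on population and table in limma 3.58.1 (R 4.3.3), with a variance trend, two-sided, and with Benjamini-Hochberg adjustment over all 12273 genes. Adjusted p values are from it where no other fit is given. A positive log2 fold change is higher in Ebi3-Treg. The code of the fit was tried on simulated data with independent noise in each library. Such data cannot show how the fit behaves where libraries deviate together. Low FPKM values were whole multiples of the worth of 1 fragment, which gave the depth of each library and, within a tolerance of 0.01, the smallest fragment numbers. Counting error is all that these numbers cover, since amplification without molecular identifiers can count 1 molecule repeatedly.

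The list of 10 genes and the other gene lists were chosen with earlier results of these data known. Named are all 10, each other pathway gene past the threshold and up to 3 others of each role with the highest mean FPKM, the TCF-1-linked genes past it, and the 5 nearest profiles of Wnt10a, Tcf7 and Lef1 (leaving out predicted models, pseudogenes and receptor segments). Genes named for a call with the replicate block, for their values or for their place on the chromosome were chosen after their values were seen. Deviations from the population means went together in libraries of the same number (r = 0.624, 0.886, 0.534 and 0.543 for numbers 1 to 4), so the number is given as a block where that changes a call. The pairing comes from the data. For numbers 3 and 4 r was as high across numbers, 0.61 for Ebi3-Treg 4 with Blimp1-Treg 3 and 0.564 for Ebi3-Treg 3 with Blimp1-Treg 4. Within a table r was 0.847 for numbers 1 and 2 and -0.084 for 3 and 4. The values thus show a pairing by number for 1 and 2 only. Other pseudocounts, filters, scalings, left-out libraries and each table alone were tried. Results on 1 gene of the TCF-1-linked list are not reported here.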

Additional observations from a re-analysis of the deposited data

Results flagged for a closer look

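In 20 groups of 4 libraries (10 genes in 2 populations), 2 had a library far from the other 3, by Dixon's test at 95%. Chance gives about 1 in 20 groups. Apc was at 12.6 FPKM in Ebi3-Treg 2, the lowest of its population, while the other 3 libraries were at 22.8 to 24.8 FPKM. Blimp1-Treg 2 was the lowest of its own population too, at 12.8 FPKM. Lrp5 was at 0.541 FPKM in Ebi3-Treg 1, the highest of its population, while the other 3 were at 0.0404 to 0.120 FPKM. Marker sums of B cells (193 FPKM), myeloid cells (107), CD8 T cells (39.3) and NK cells (12.6) were also highest in Ebi3-Treg 1. The myeloid sum was 96.7 FPKM in Ebi3-Treg 2, where Lrp5 was at 0.0404 FPKM. In Blimp1-Treg 1 the B cell sum was 141 FPKM and Lrp5 was at 0.124 FPKM. The part of such cells in the Lrp5 value of Ebi3-Treg 1 was not tested.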

How the results depend on the processing

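The log2 fold changes of Wnt10a (4.38 to 6.65), Tcf7 (2.37 to 3.02), Lef1 (0.64 to 0.77) and Lrp6 (0.03 to 0.54) kept their sign under all 19 alternatives. Those of Ctnnb1, Axin2 and Apc, smaller than their errors, kept it in 17, 16 and 13. The filters, the variance trend, the replicate block and the table term cannot move these values in a balanced design. Only the other alternatives could therefore have changed a sign. Counts moved more. In the order of all genes called, other pathway genes higher, the same lower, and TCF-1-linked genes called (772, 3, 1 and 5), the replicate block gave 2752, 15, 4 and 10, leaving out both libraries numbered 1 gave 1970, 11, 3 and 10, leaving out both numbered 2 (added after seeing the data) gave 1962, 12, 4 and 8, and replicates 3 and 4 alone gave 1347, 8, 2 and 7. Replicates 1 and 2 alone gave 0 in each, with 707, 4 (both directions) and 4 at an unadjusted p under 0.05 (limma). With no table term 441 genes and 3 TCF-1-linked genes were called. With no filter 420 genes were called, and 0 pathway genes lower. A minimum of 5 FPKM gave 1 pathway gene higher and 0 lower, since Wnt3, Tcf7l1 and Fzd6 were then left out, and upper-quartile scaling gave 2 lower. Leaving out 1 library gave 341 to 771 genes in all, 3 to 4 pathway genes higher, 0 to 1 lower and 4 to 6 TCF-1-linked. Of the 7 fitted genes of the list, the table difference called 5 without both libraries numbered 1, 1 without both numbered 2, and 0 to 3 with 1 library left out. The share over all genes was not counted in those fits, so nothing is read from these counts. The interaction called 0 under every setting it was fitted in. The cause of these moves was not tested. Depth limits Wnt10b, Lrp5 and Tcf7l2, with few fragments each.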

Other observations

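Wnt6, the neighbour of Wnt10a in the gene order of the reference, was at 0.470, 0.298, 0.702 and 0.424 FPKM in Ebi3-Treg and at 0.0214 FPKM in Blimp1-Treg 1, and was listed at 0 in the other 3 Blimp1-Treg libraries. At the smallest these are 18, 9, 14 and 14 fragments against 1, 0, 0 and 0. Each Ebi3-Treg library was above each Blimp1-Treg library. The gene was too low to be tested and was looked at for its place beside Wnt10a. The next gene on the other side, Cdk5r2, was at 0 to 0.366 FPKM, with its highest value in Blimp1-Treg 2.

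Wnt3 also lies beside another ligand gene in that order, Wnt9b, which did not exceed 0.0346 FPKM. The next gene on the other side, Nsf, which encodes a factor of vesicle fusion, had an adjusted p of 0.747 and a log2 fold change of -0.15 (SE 0.16). Fzd8, a Frizzled receptor too low to be tested, was at 1.45, 0.326, 0.224 and 0.216 FPKM in Ebi3-Treg and at 0.0191, 0, 0 and 0 FPKM in Blimp1-Treg. These are 62, 11, 5 and 8 fragments against 1, 0, 0 and 0 at the smallest, and Fzd8 was named after its values were seen.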
